A study of Mus musculus with 2 samples.

Results

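The 6 keratin genes described here are Krt5, Krt7, Krt8, Krt15, Krt18 and Krt19, read in the developing lung epithelium of the mouse. They were chosen by symbol from the 31053 genes listed for the control library, which hold 53 keratin genes in all, and all 6 were found. The values come from sorted lung epithelial cells of control mouse embryos at embryonic day 15, captured as 1 library on the 10x Chromium 3′ platform. Each captured RNA molecule is counted once there, by its unique molecular identifier (UMI). A second library, from embryos of the same age with the LEF/TCF transcription factors knocked out, was not analysed here for expression. The labels give the genotypes as control and LEF/TCF transcription factors knockouts, and name no strain, allele, Cre driver or number of embryos for either group. The LEF/TCF factors carry Wnt signals to target genes, and the values below describe the control epithelium.

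Keratins are the intermediate filament proteins of epithelial cells. A filament is built from pairs of a type I and a type II keratin, so an epithelial cell needs at least one of each kind. Simple, single-layered epithelia use the type II keratins Krt8 and Krt7 with the type I keratins Krt18 and Krt19, whereas Krt5 and its partners Krt14 and Krt15 are known from the basal cells of stratified and pseudostratified epithelia, the adult trachea among them. In the embryonic lung the tips of the branching tubes hold Sox9-positive distal progenitors, which give rise to alveolar cells, and the stalks hold Sox2-positive cells of the future airways.

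Of the 6 genes, 4 lie on chromosome 15 and 2 on chromosome 11, where mouse keratin genes stand in a type II and a type I cluster. In GENCODE M21 (build GRCm38) the type II genes Krt7, Krt5 and Krt8 lie at chr15:101411043-101430313 on the plus strand, chr15:101707070-101712898 on the minus strand and chr15:101996698-102004482 on the minus strand. The type I gene Krt18 lies beside them, at chr15:102028180-102032027 on the plus strand, 23.7 kb from Krt8 with 0 annotated genes wholly between the pair. Krt15 (chr11:100131758-100135928) and Krt19 (chr11:100140810-100148665) are both on the minus strand and 4.9 kb apart. All 6 are protein-coding, with 6 to 9 exons in the longest transcript, and all 6 deposited gene identifiers occur in that annotation. Krt7 overlaps an antisense gene, Gm671, Krt8 overlaps a lincRNA on the opposite strand, Gm36026, and Krt5 overlaps a miRNA gene, Gm44323. Gm671 and Gm36026 are not among the listed genes. Whether the counting used strand is not given in the sources used here. A processed pseudogene, Krt8-ps (chr7:23357125-23358069), is not listed either, so Krt8 counts could hold or lack reads shared with it.

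The starts of Krt7, Krt8 and Krt18 are shown because these 3 abundant keratins were all lowest in distal progenitors, as described below. RefSeq promoter windows (GRCm38.p6) were found for 4 of the 6 genes, Krt5, Krt7, Krt8 and Krt18. Each sequence runs 5′ to 3′ on the gene's own strand from base -150 to base 6, where base 1 is the RefSeq start and base -1 the one before it. For Krt7, Krt8 and Krt18 this start differs from the end of the GENCODE gene given above, so base numbers hold for RefSeq only. The windows are chr15:101412253-101412408 (plus strand) for Krt7, chr15:102004337-102004492 (minus strand) for Krt8 and chr15:102028066-102028221 (plus strand) for Krt18. Capitals mark matches to the motifs named after them, on either strand, and the Krt18 stretch holds none.
Krt7: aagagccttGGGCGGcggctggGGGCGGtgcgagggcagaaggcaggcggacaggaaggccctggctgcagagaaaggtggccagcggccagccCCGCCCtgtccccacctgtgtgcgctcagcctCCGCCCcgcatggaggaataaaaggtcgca
Krt8: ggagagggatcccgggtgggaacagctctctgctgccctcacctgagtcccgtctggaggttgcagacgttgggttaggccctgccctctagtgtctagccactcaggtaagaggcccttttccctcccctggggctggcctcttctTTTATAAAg
Krt18: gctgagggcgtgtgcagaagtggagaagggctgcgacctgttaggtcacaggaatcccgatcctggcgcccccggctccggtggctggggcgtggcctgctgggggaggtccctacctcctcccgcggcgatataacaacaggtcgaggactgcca

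7 short motifs were searched on both strands in the whole windows of 300 bases, from 250 before to 50 after the start. They were TATAAA (known as the TATA box), GGGCGG (known as the GC box), TGACTCA (for AP-1), CTTTGAT (for LEF/TCF), CTTTGAA (a variant of it), AACCNGTT (a Grainyhead site) and ACAAAG, a core of SOX sites whose opposite strand shares its first 5 letters with the LEF/TCF sites. Krt7 held 4 matches to GGGCGG, at bases -141 to -136, -128 to -123, -56 to -51 and -24 to -19, a motif found in 35.7% of 32851 promoters of that length. Krt8 held TATAAA across its RefSeq start, on the plus strand at bases -1 to 5 and on the minus strand at -3 to 3, against 13.6% of all promoters with a match. Krt18 held 1 match to ACAAAG at bases -203 to -198, outside the printed window, against 18.7% of all promoters. Krt5 held none of the 7. Neither LEF/TCF motif, present in 3.73% and 5.14% of promoters, occurred in the 4 windows, and that says nothing about the factors. TGACTCA (5.20%) and AACCNGTT (2.09%) did not occur there either.

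Barcodes with at least 1000 genes and at most 10% mitochondrial UMIs were kept, 3457 of 3568, with a median of 12826 UMIs and 3049 genes and 53639813 UMIs in all. Cells were clustered without any keratin gene and without cell-cycle genes, so that keratin levels could not shape the classes. The clusters were 786 airway-like cells, 1238 distal progenitor-like cells in 2 clusters, 622 alveolar type 2-like cells, 42 mesenchymal-like cells and 4 clusters without a cell type name. The largest unnamed cluster (602 cells) was led by Cym, Smoc2 and Ager, and is called the Cym cluster. Another (103 cells) was led by Smoc2 and Rec8. A smaller unnamed cluster (28 cells) had a median mitochondrial share of 0.0573%. All clusters but the mesenchymal-like one, 3415 cells, had at least 4 of 5 pan-epithelial markers at 25% or more of their level in the whole library, and are called epithelial.

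Signs of droplets with more than 1 cell differed between the classes. The doublet caller Scrublet called 0 cells, but 249 cells (7.20%) had at least 4 Xist UMIs together with a UMI of a Y-linked gene. That share was 11.2% of airway-like, 1.86% of distal progenitor-like, 3.22% of alveolar type 2-like and 19.1% of Cym cluster cells, and 0% of the Smoc2-Rec8 cluster. Values are therefore repeated in cells of at most 14000 UMIs where they differ. In all, 29 barcodes also occurred among the 5342 of the knockout library. With 1 library there is no spread between replicates, no test was made, and every interval below is a 95% interval for counting error only.

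The epithelium was dominated by the simple keratins. Levels are given as CPM, the summed UMIs of a gene relative to all UMIs of the same cells. Each molecule is counted once at its 3′ end, so levels of different genes are compared without length scaling. Over the 3415 epithelial cells, Krt18 stood at 369.7 CPM (interval 364.5 to 374.9), Krt8 at 226 CPM (222 to 230), Krt7 at 158 CPM (154.5 to 161) and Krt19 at 96.3 CPM (93.7 to 99.0). Krt15 was far lower, at 8.15 CPM (7.40 to 8.95). Krt5 had a single UMI, in 1 alveolar type 2-like cell of 15241 UMIs, which is 0.0188 CPM (0.000475 to 0.105). The order Krt18, Krt8, Krt7, Krt19, Krt15 and Krt5 thus has no neighbours whose intervals overlap. The 6 genes held 94.1% of all keratin UMIs in kept cells.

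The non-epithelial cells give the level that RNA free in the suspension could contribute. Among the 362864 UMIs of the 42 mesenchymal-like cells there were 2 of Krt8 and 1 of Krt19, and 0 of Krt18, Krt7, Krt15 and Krt5. The 4 abundant keratins together thus had 3 UMIs there, 8.27 CPM (1.705 to 24.2), which is 0.979% of their level in the whole library and at most 2.86% by that interval. The count of 0 for Krt15 allows 8.27 CPM by itself. If free RNA held the keratins in the proportions of the library, the same percentages would put Krt15 at 0.0792 CPM and at most at 0.232 CPM, against 1.66 CPM (1.06 to 2.47) measured in distal progenitor-like cells.

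**Figure D1:**
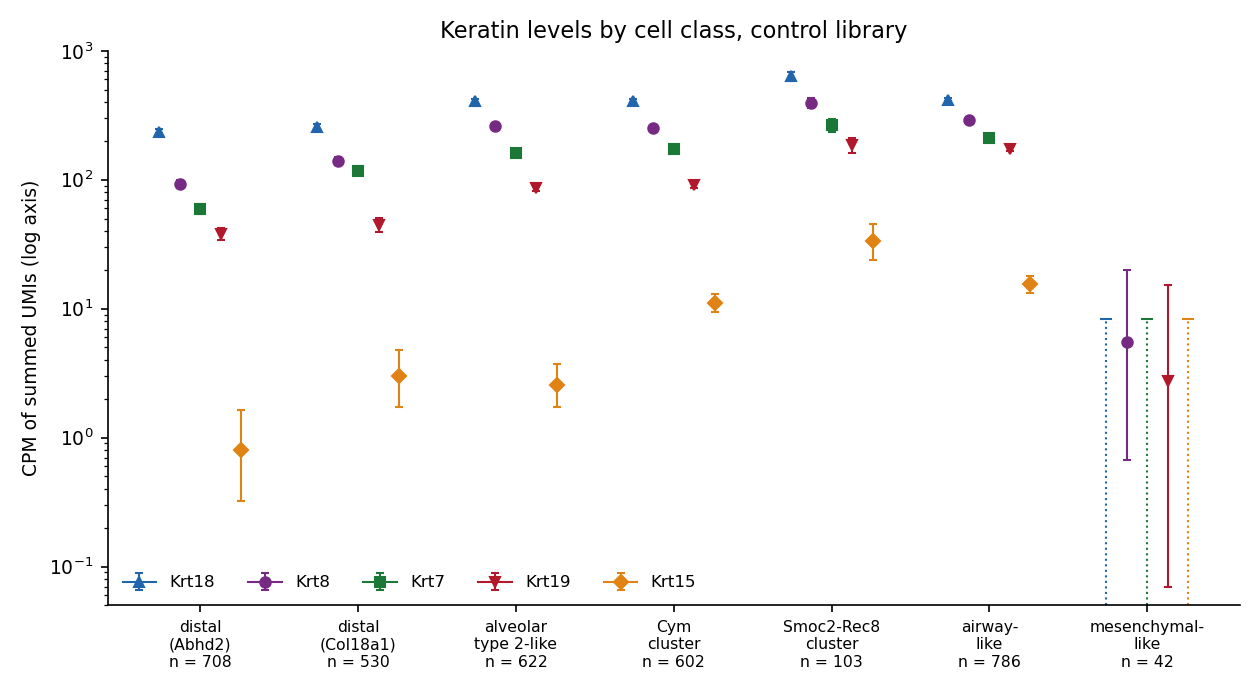
CPM of summed UMIs (log axis) for 5 keratins in 7 groups of control cells, with n the number of cells. Points carry 95% Poisson intervals for counting error, and dotted lines end at the limit of 8.27 CPM that a count of 0 allows. Among the epithelial groups shown, all 4 abundant keratins are lowest in the 2 distal clusters and highest in the Smoc2-Rec8 cluster. Krt15 runs from 0.799 to 33.5 CPM among them.

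The first comparison asked how keratin levels differ between the airway-like and the distal progenitor-like class. The latter does not hold all cells high in distal markers. The 7 distal markers summed to 3392.5 CPM in it and to 3913 CPM in alveolar type 2-like cells. They summed to 2989 CPM in the Cym cluster, 2214 CPM in the Smoc2-Rec8 cluster and 1046 CPM in airway-like cells. All 5 keratins with measurable levels were higher in airway-like than in distal progenitor-like cells, and Krt15 and Krt19 differed more than Krt18. The Cym cluster also had more Sox9 (134 CPM), Etv5 (202 CPM) and Sftpc (1657 CPM) than airway-like cells (61.7, 64.0 and 372 CPM), but stayed out of the distal class because Ager, an alveolar type 1 marker, was among its leading genes. Of the 5, 4 were at least 2-fold higher and 0 at least 2-fold lower. Of the 10735 genes that reached 50 UMIs in the 2 classes together, 8.06% were at least 2-fold higher and 2.24% at least 2-fold lower in airway-like cells. The members' median log2 ratio was 1.39, against 0.22 over all those genes.

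Krt18, the type I partner of Krt8, was the most even of the 5. It stood at 418 CPM (406 to 430) in airway-like and at 244 CPM (236 to 252) in distal progenitor-like cells, a ratio of 1.71 (1.64 to 1.79). Of the genes compared, 86.3% had a lower ratio. Krt8, the type II keratin of simple epithelia, was at 291 CPM (282 to 301.5) against 111 CPM (106 to 117), a ratio of 2.62 (2.47 to 2.78).

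Krt7, a type II keratin of ducts and airways, was at 209.5 CPM (201 to 218) against 82.4 CPM (77.8 to 87.2), a ratio of 2.54 (2.37 to 2.73). Krt8 and Krt7 therefore had ratios whose intervals overlap, and both lay above Krt18. Krt19, the small type I keratin that lacks most of the tail domain, was at 174 CPM (166 to 182) against 40.8 CPM (37.6 to 44.2). Its ratio of 4.265 (3.89 to 4.68) was the highest of the abundant keratins, and 98.3% of genes had a lower one.

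Krt15, a type I keratin known from basal and progenitor cells of stratified epithelia, was at 15.5 CPM (13.3 to 17.9) against 1.66 CPM (1.06 to 2.47). These levels are 176 UMIs in airway-like and 24 UMIs in distal progenitor-like cells, a ratio of 9.33 (6.07 to 14.95). Of all genes compared, 99.3% had a lower ratio.

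With only the cells up to 14000 UMIs, the 5 ratios stood at 1.71 for Krt18, 2.82 for Krt8, 3.01 for Krt7, 5.25 for Krt19 and 9.66 for Krt15. Without the cells that held both Xist and Y-linked UMIs they were 1.72, 2.73, 2.69, 4.57 and 9.37 in the same order. Other markers also moved between the classes. The 5 pan-epithelial markers, all detected, summed to 1735.5 CPM in airway-like and 1242 CPM in distal progenitor-like cells. The 3 platelet markers summed to 1.055 CPM with 2 detected and, in the distal class, to 71.55 CPM with 3 detected, of which Pf4 was 61.2 CPM. Their part in the result was not tested. The clustering mattered more for the size. With the Cym cluster counted as distal, an alternative chosen after seeing the data, the ratios were 1.28 (1.235 to 1.325) for Krt18, 1.61 (1.54 to 1.685) for Krt8, 1.63 (1.55 to 1.72) for Krt7, 2.63 (2.47 to 2.80) for Krt19 and 2.42 (1.96 to 2.997) for Krt15. Only Krt19 and Krt15 were then at least 2-fold higher, and the share of all genes past that fold was not computed for these classes. With cell-cycle genes kept among the variable genes, the ratios were 1.20 for Krt18, 1.55 for Krt8, 1.58 for Krt7, 2.48 for Krt19 and 2.20 for Krt15.

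**Figure D2:**
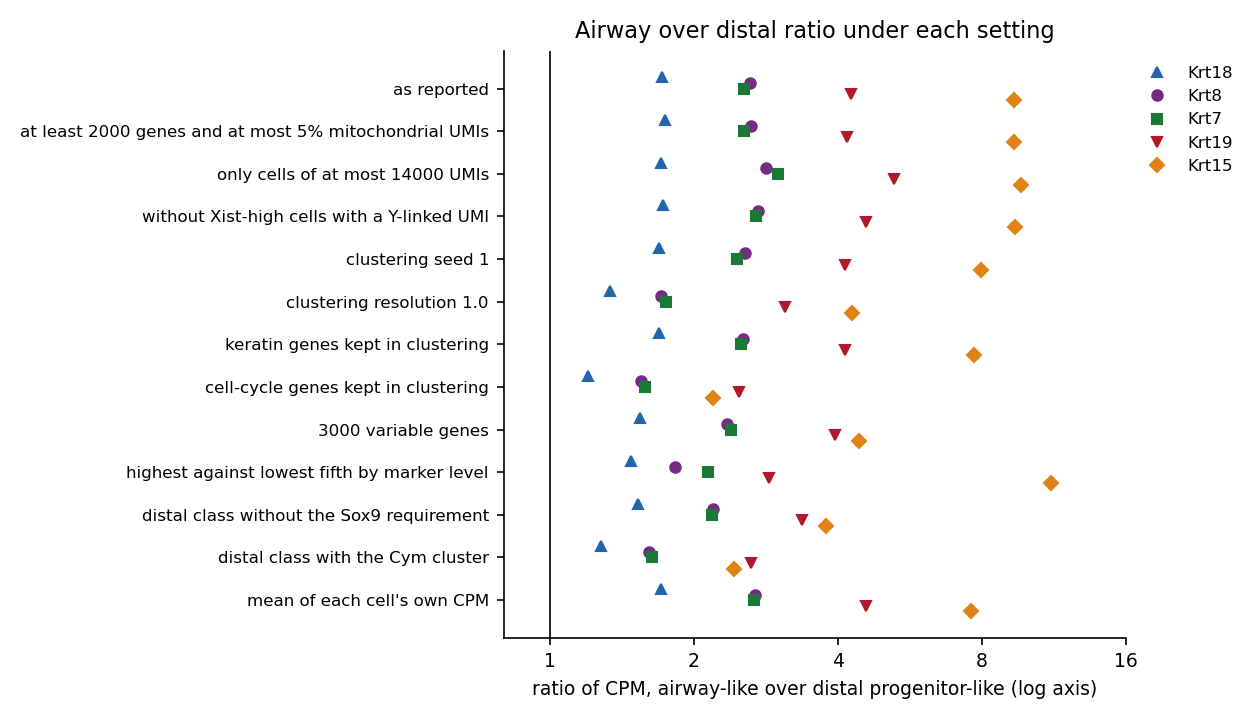
Ratio of CPM, airway-like over distal progenitor-like cells (log axis), for 5 keratins as reported and under 12 alternatives, with no intervals drawn. All ratios lie above 1, from 1.20 to 1.74 for Krt18 and from 2.48 to 5.25 for Krt19, and Krt15 ranges most widely, from 2.20 to 11.2.

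**Figure D3:**
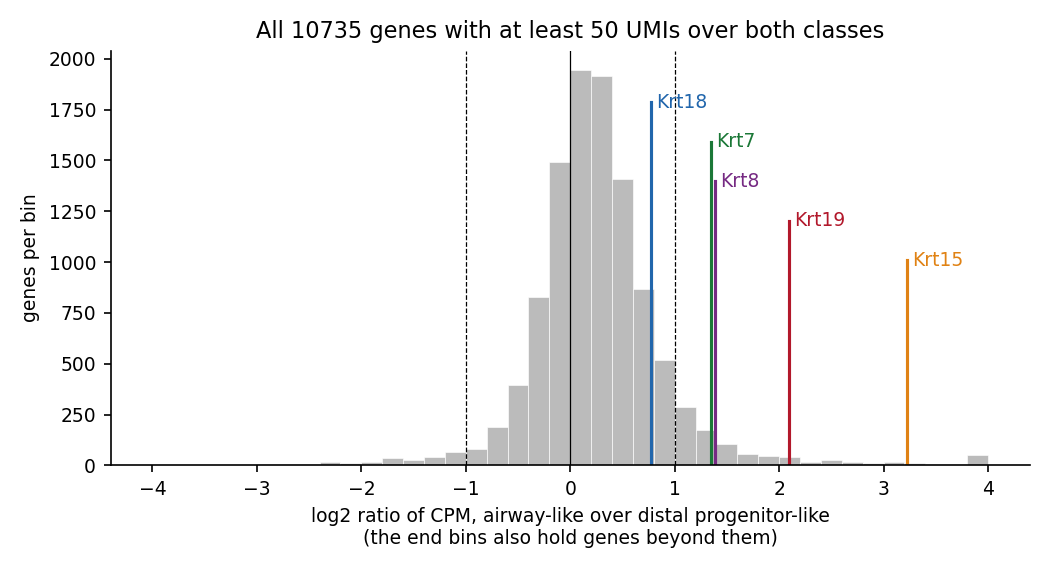
Number of genes (vertical axis) by log2 ratio of CPM, airway-like over distal progenitor-like cells, for the 10735 genes that reached 50 UMIs in the 2 classes together. Coloured lines mark the 5 keratins, and dashed lines mark a fold of 2 in either direction. Krt18 lies inside the dashed lines, at 86.3% of the ranking, and the other 4 lie beyond the upper one.

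The 2 distal clusters were not alike. The cluster led by Abhd2, Spry2, Meg3 and Pthlh (708 cells) had the lowest Krt7, at 59.5 CPM (54.5 to 64.8), against 117.5 CPM (109 to 127) in the cluster led by Col18a1, Mia and Sftpc (530 cells). The ratio between them was 1.975 (1.76 to 2.22) for Krt7 and 1.49 (1.35 to 1.65) for Krt8. Krt18 differed little, at 235 and 258 CPM, a ratio of 1.10 (1.03 to 1.17). For Krt19 the interval of the ratio held 1 (1.18, interval 0.995 to 1.39), although in cells of at most 14000 UMIs it was 1.41 (1.15 to 1.74). Krt15 had 7 UMIs in the first cluster and 17 in the second.

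Over all alveolar type 2-like cells the abundant keratins stood above distal progenitors and at or below the airway. There Krt18 was at 407 CPM (395.5 to 419), Krt8 at 259 CPM (249 to 268), Krt7 at 161 CPM (154 to 169) and Krt19 at 87.0 CPM (81.6 to 92.6). Against distal progenitor-like cells 2 of 5 keratins were at least 2-fold higher, Krt8 (2.325, interval 2.19 to 2.47) and Krt19 (2.13, interval 1.92 to 2.37), where 4.55% of 10424 genes were. Krt7 (1.95), Krt18 (1.67) and Krt15 (1.55, interval 0.870 to 2.78) fell short of that fold. In cells of at most 14000 UMIs Krt7 (2.10) and Krt15 (5.21) passed it too, and the share of all genes was not computed for those cells. The Krt18 level did not differ from that of airway-like cells beyond counting error (ratio 0.974, interval 0.935 to 1.01), whereas Krt19 was at 0.5001 times the airway level (0.463 to 0.540).

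Krt15 in the alveolar type 2-like cells rested on few cells. It was at 2.57 CPM (1.72 to 3.69) over the class, or 29 UMIs. In the 190 cells of at most 14000 UMIs it was at 9.34 CPM (5.78 to 14.3), and in the 432 deeper cells at 0.885 CPM (0.382 to 1.74). The Cym cluster, described below, had 4.34 times this class's Krt15 (interval 2.91 to 6.69) over all cells and 1.38 times (0.716 to 2.65) in cells of at most 14000 UMIs.

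A split by the surfactant gene Sftpb gave another picture. Among the distal, alveolar type 2-like, Cym and Smoc2-Rec8 cells, 81 had 2 or more Sftpb UMIs at 5000 UMIs per cell and 2129 had none. Krt18 was at 287 CPM (259 to 317) in the first and 366 CPM (360 to 373) in the second, a ratio of 0.784 (0.707 to 0.868). For Krt8 (0.905, interval 0.797 to 1.02), Krt7 (0.866, interval 0.739 to 1.01) and Krt19 (0.892, interval 0.717 to 1.099) the intervals held 1. Krt15 was at 1.48 against 6.825 CPM, a ratio of 0.217 (0.0261 to 0.792) from 2 and 235 UMIs. Of the 81 cells, 43 were alveolar type 2-like and 22 came from the distal cluster led by Col18a1. The cells without Sftpb held 452 alveolar type 2-like and 540 Cym cluster cells besides 1037 distal progenitor-like ones. The abundant keratins were thus not higher in the Sftpb-high cells. The 2 sides differed in class mix, and its part in the ratios was not tested. No such split was made within the alveolar type 2-like class.

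Ager, a marker of alveolar type 1 cells, split the same cells with the opposite sign. The 145 cells with 2 or more Ager UMIs had Krt7 at 207 CPM (188.5 to 227), against 130.2 CPM (126 to 134) in 1914 cells without one, a ratio of 1.59 (1.44 to 1.75). The ratio was 1.31 (1.22 to 1.40) for Krt18, 1.23 (1.13 to 1.34) for Krt8 and 1.17 (1.001 to 1.36) for Krt19. Krt15 was at 11.2 against 4.67 CPM, a ratio of 2.39 (1.498 to 3.67) from 25 and 145 UMIs. The median depths were 12964 and 13417 UMIs. Of the 145 cells, 56 were from the Cym cluster, 38 from the distal cluster led by Col18a1 and 5 from the one led by Abhd2. Another 31 were alveolar type 2-like and 15 from the Smoc2-Rec8 cluster. Of the 1914 cells without Ager, 989 were distal progenitor-like, 615 of them from the cluster led by Abhd2. Class mix thus differed between the 2 sides, and its part in the ratios was not tested.

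The 2 clusters with the most Ager also had high keratin levels. In the Cym cluster, with Ager at 93.7 CPM, Krt18 was at 410.1 CPM, Krt8 at 250.5 CPM, Krt7 at 174.5 CPM (168 to 181), Krt19 at 91.6 CPM and Krt15 at 11.15 CPM (9.49 to 13.0). Against distal progenitor-like cells 4 of the 5 were at least 2-fold higher, where 2.83% of 10699 genes were. The ratio for Krt15 was 6.72 (4.36 to 10.8) and exceeded that of 99.99% of the genes. The depth of this cluster, a median of 20544 UMIs, and its share of cells with both Xist and Y-linked UMIs were the highest of the 5 large classes. In its 150 cells of at most 14000 UMIs the levels were 434 CPM for Krt18, 287 CPM for Krt8, 184 CPM for Krt7, 101 CPM for Krt19 and 12.9 CPM for Krt15.

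The Smoc2-Rec8 cluster held the highest levels of Krt18, Krt8, Krt15 and Krt19. Krt18 was at 632 CPM (588 to 679), Krt8 at 394 CPM (359.5 to 431.5) and Krt15 at 33.5 CPM (23.9 to 45.6) from 40 UMIs. All 5 keratins were at least 2-fold higher than in distal progenitor-like cells, where 7.19% of 9580 genes were. Only the Sox9 requirement, set after the clusters were seen, kept this cluster out of that class. With it counted as distal, the airway-like over distal progenitor-like ratios were 1.53 for Krt18, 2.19 for Krt8 and 2.18 for Krt7. They were 3.36 for Krt19 and 3.79 for Krt15. The ratio to airway-like cells was 1.51 (1.40 to 1.63) for Krt18, 1.35 (1.23 to 1.49) for Krt8 and 2.16 (1.495 to 3.06) for Krt15. For Krt19 the interval held 1 (1.06, interval 0.921 to 1.22), and in cells of at most 14000 UMIs the ratio was below 1 (0.9425, interval 0.8002 to 1.11). For Krt7 the ratio was 1.26 (1.115 to 1.42) over all cells and 1.055 (0.9155 to 1.21) up to 14000 UMIs. The cluster had Ager at 127 CPM, Sftpc at 1238 CPM and Scgb3a2 at 0.837 CPM, and a median of 10784 UMIs. Its 7 airway markers together, 5 of them detected, reached 253.6 CPM. That sum was below the 860 CPM of the airway-like class. It was above those of the Cym cluster (139.3 CPM), the alveolar type 2-like class (63.5 CPM) and the distal progenitor-like class (54.3 CPM).

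Among the 5 large epithelial classes, the balance of type I and type II members was similar in all but the distal progenitor-like one. Type I genes (Krt15, Krt18 and Krt19) gave 54.8% of the 6 genes' UMIs in airway-like (interval 53.9% to 55.7%), 54.2% in alveolar type 2-like (53.2% to 55.2%), 54.7% in Cym cluster (53.8% to 55.5%) and 56.4% in Smoc2-Rec8 cells (54.1% to 58.7%). Distal progenitor-like cells stood higher, at 59.7% (58.5% to 60.8%). Within them the cluster led by Abhd2 was at 64.2% (62.7% to 65.8%) and the one led by Col18a1 at 54.4% (52.6% to 56.1%). Within the type I share, Krt19 made up 15.7% of the 6 genes' UMIs in airway-like and 8.49% in distal progenitor-like cells, and Krt18 made up 37.7% and 50.8%.

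The cells were also ordered by markers rather than clusters. The 3415 epithelial cells were ranked by the mean log level of 7 airway markers minus that of 7 distal markers and divided into 10 bins of 341 or 342 cells. From the most distal bin 1 to the most airway bin 10, Sox2 went from 0.588 to 221 CPM and Sox9 from 292 to 12.8 CPM. Bins were drawn across all epithelial classes, and the class mix of each was not counted. In bin 1, Krt8 (165 CPM), Krt7 (109 CPM) and Krt19 (63.1 CPM) lay above the distal progenitor-like class (111, 82.4 and 40.8 CPM). Krt18 also lay above that class (266 against 244 CPM), and Krt15 below it (0.784 against 1.66 CPM). Krt18 went from 266 CPM (252 to 281) to 448 CPM (426.5 to 471), and had reached 368.5 CPM (353.5 to 384) in bin 4. Krt8 went from 165 to 354 CPM, each bin higher than the one before. Krt7 went from 109 to 257 CPM, with a level stretch of 138, 136 and 137 CPM in bins 3 to 5.

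Krt19 and Krt15 followed other courses. Krt19 lay between 63.1 and 78.8 CPM over bins 1 to 6 and then at 89.9, 119, 155 and 241 CPM (225 to 257.5 in bin 10). Krt15 was higher from the middle onward, at 0.784 CPM in bin 1, 9.77 CPM in bin 6 and 18.3 CPM (14.8 to 22.4) in bin 8, and stood at 14.7 CPM (11.04 to 19.3) in bin 10. The cells at the airway end were shallower, with a median of 8802 UMIs in bin 10 against 13610.5 in bin 1.

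**Figure D4:**
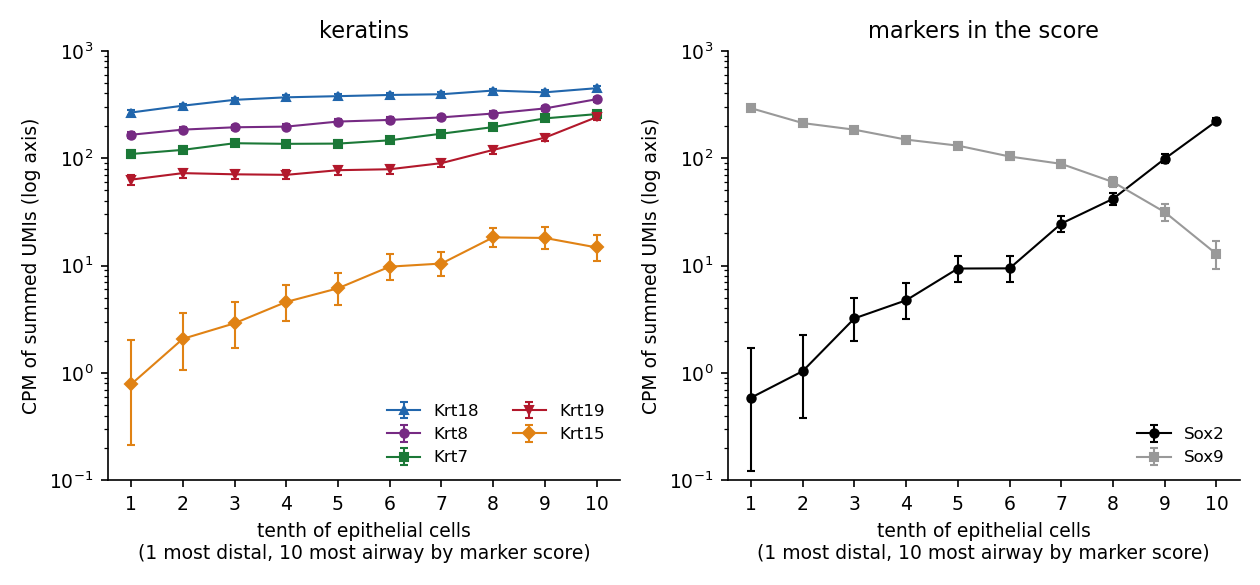
CPM of summed UMIs (log axis) in 10 bins of the 3415 epithelial cells, ordered from most distal (1) to most airway (10) by a marker score that holds no keratin; bars are 95% Poisson intervals. The left panel shows the keratins and the right panel Sox2 and Sox9, which are part of the score. Krt19 is nearly level up to bin 6 and reaches 241 CPM in bin 10, while Krt15 is highest in bins 8 and 9.

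Within the airway-like cells Krt19 went with the secretory marker Scgb3a2. In 111 cells with 3 or more Scgb3a2 UMIs at 5000 UMIs per cell, Krt19 was at 304 CPM (276 to 333), against 146 CPM (138 to 155) in 532 cells without one, a ratio of 2.08 (1.86 to 2.32). The ratios of Krt8 (1.19, interval 1.08 to 1.31) and Krt18 (1.15, interval 1.06 to 1.25) were small, and those of Krt7 (1.08, interval 0.954 to 1.21) and Krt15 (1.14, interval 0.717 to 1.75) held 1. The median depths were 9926 and 10760 UMIs. In the 102 cells with 1 or 2 Scgb3a2 UMIs, Krt19 was at 187 CPM (167 to 208).

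Krt5 and Krt14, the keratins of basal cells, were at or near 0. Krt5 had 0 UMIs in airway-like cells, which allows up to 0.264 CPM, and Krt14 had 0 UMIs in all kept cells. Trp63, the transcription factor that marks basal cells and their progenitors, had 43 UMIs, 38 of them in airway-like cells. Among airway-like cells of at least 5000 UMIs, the 28 with a Trp63 UMI had 0 UMIs of Krt5 among 501523, which allows at most 5.98 CPM. Their Krt19 was at 301 CPM (255 to 353), against 167 CPM (160 to 175) in 717 cells without one, a ratio of 1.80 (1.52 to 2.13), and their Krt7 was lower (0.699, interval 0.547 to 0.881). Krt15 was at 21.9 CPM (10.95 to 39.2) from 11 UMIs, against 14.85 CPM, a difference not detectable at this depth (ratio 1.48, interval 0.723 to 2.72). The median depth was 14095.5 UMIs in cells with a Trp63 UMI and 10901 in those without.

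Krt18 was lower in cells with UMIs of the proliferation genes Mki67 and Top2a in each of the 4 classes compared, and the other keratins were lower in some of them. Cells with 2 or more Mki67 and Top2a UMIs at 5000 UMIs per cell were set against cells without either. In distal progenitor-like cells (321 against 594) the ratio was 0.845 (0.780 to 0.915) for Krt18, 0.829 (0.721 to 0.952) for Krt7 and 0.787 (0.642 to 0.962) for Krt19, while the intervals of Krt8 (0.893, interval 0.794 to 1.004) and Krt15 (0.280, interval 0.0302 to 1.285) held 1. In airway-like cells (115 against 501) it was 0.851 (0.784 to 0.923) for Krt18, 0.752 (0.667 to 0.846) for Krt7 and 0.824 (0.723 to 0.936) for Krt19, and again Krt8 (0.910, interval 0.826 to 1.001) and Krt15 (0.632, interval 0.377 to 1.01) held 1. The alveolar type 2-like cells (118 against 341) differed in which keratins were lower. Their ratio was 0.750 (0.692 to 0.812) for Krt18, 0.697 (0.629 to 0.771) for Krt8, 0.818 (0.721 to 0.927) for Krt7 and 0.186 (0.0214 to 0.743) for Krt15, and Krt19 held 1 (0.924, interval 0.782 to 1.09).

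In the Cym cluster (164 against 264) the differences were small. The ratio was 0.892 (0.836 to 0.951) for Krt18 and 0.886 (0.816 to 0.962) for Krt8, and the intervals of Krt7 (0.970, interval 0.879 to 1.07), Krt19 (1.004, interval 0.877 to 1.15) and Krt15 (1.025, interval 0.688 to 1.51) held 1. Depth differed beside these values. The cells with 2 or more UMIs were deeper in the other 3 classes, with medians of 12038 against 10000.5 UMIs in distal progenitor-like, 14335 against 9789 in airway-like and 18150.5 against 14713 in alveolar type 2-like cells, and not in the Cym cluster, at 19814.5 against 20544. The part of depth in these ratios was not tested.

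Detection per cell followed the order of the levels, and at 5000 UMIs per cell only Krt18 and Krt8 were clearly seen in most epithelial cells. For this, each cell was thinned at random to 5000 UMIs, which left out 88 shallower epithelial cells. Krt18 was seen in 77.9% of the 3327 epithelial cells (interval 76.4% to 79.3%), Krt8 in 61.0% (59.3% to 62.7%), Krt7 in 48.9% (47.2% to 50.6%), Krt19 in 32.1% (30.5% to 33.8%) and Krt15 in 3.10% (2.53% to 3.74%). Without thinning the shares were 92.6%, 82.7%, 76.2%, 59.15% and 8.93%. At 3000 UMIs per cell Krt18 was still seen in most cells (61.7%), but Krt8 was not (44.5%). Among 38 mesenchymal-like cells at 5000 UMIs, 1 had a Krt8 UMI and 0 had a Krt18 UMI. Krt5 had 0 of 3327, which allows a share of up to 0.0902% of cells with a UMI at 5000 UMIs and sets no limit on cells that express the gene at a low level.

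Between classes the shares followed the levels. Krt18 was seen in 66.0% of distal progenitor-like cells (63.2% to 68.7%), in 84.3% of airway-like cells (81.5% to 86.8%) and in 95.15% of Smoc2-Rec8 cells (89.0% to 98.4%). Krt8 went from 40.6% (37.8% to 43.5%) to 73.7% (70.4% to 76.8%) and 84.5% (76.0% to 90.9%) over the same classes. Krt19 was seen in 16.1% of distal progenitor-like cells (14.1% to 18.3%). In airway-like cells its share was 52.1% (48.4% to 55.7%), and 1 of them held 28 Krt19 UMIs. The share of cells without a UMI of any member was 14.4% in the distal and 1.88% in the airway class.

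**Figure D5:**
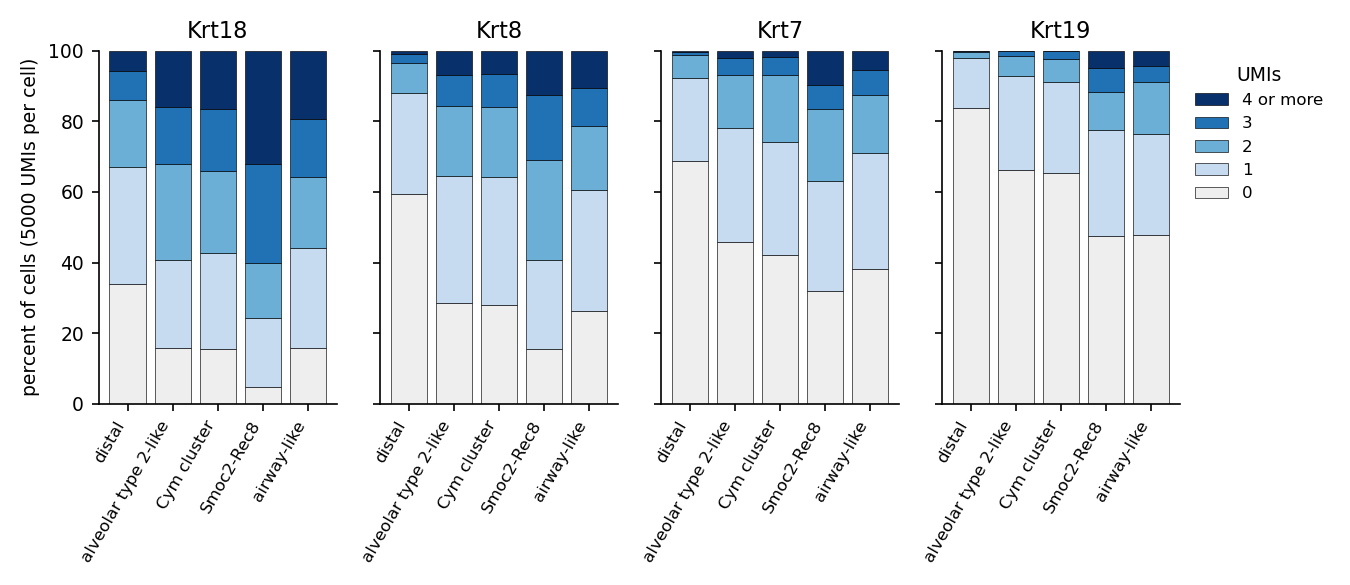
Percent of cells (vertical axis) with 0, 1, 2, 3 or 4 or more UMIs of 4 keratins after thinning each cell to 5000 UMIs, in 5 cell classes. The pale bottom part is the cells without a UMI. For Krt18 it is largest in distal progenitor-like cells, of which 66.0% had a UMI, and smallest in the Smoc2-Rec8 cluster, of which 95.15% had one.

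Krt8 and Krt18, the main partners of simple epithelia, had the highest correlation over cells of the 10 pairs among the 5 keratins, in both the distal and the airway class. At 5000 UMIs per cell Krt8 and Krt18 were both seen in 64.4% of airway-like cells, where the product of their single shares is 62.1%. In distal progenitor-like cells both were seen in 28.9%, against a product of 26.8%. Krt7 and Krt8 were both seen in 48.2% of airway-like cells (product 45.5%) and in 15.1% of distal progenitor-like cells (product 12.7%). Across 1206 distal progenitor-like cells the Pearson correlation of log counts was 0.16 for Krt8 and Krt18, and 0.12 for the type II genes Krt7 and Krt8. Across 745 airway-like cells these were 0.21 and 0.18. In alveolar type 2-like cells they were 0.17 and 0.094. The order was the other way in the Cym cluster (0.067 and 0.15) and the Smoc2-Rec8 cluster (0.021 and 0.052). The cells share 1 library and the counts are sparse, so these weak correlations are given as a description.

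By the Pearson correlation of log counts over 3327 epithelial cells, the 5 nearest of 2360 genes of at least 50 CPM were Anxa2 (0.29), Cdkn1c (0.28), Ccnd2 (0.26), Cldn10 (0.25) and S100a6 (0.25) for Krt19. For Krt7 they were Cdkn1c (0.25), Pkm (0.25), Krt8 (0.23), Ubb (0.22) and Atp5b (0.22). Krt8 was nearest to Eno1 (0.30), Pkm (0.30), Ldha (0.28), Hnrnpk (0.28) and Gapdh (0.28), and Krt18 to Gapdh (0.26), Krt8 (0.24), Atp5b (0.23), Eif4a1 (0.23) and Pkm (0.23). Over 60 pooled groups of cells the lists changed, with 2 of 5 genes shared for Krt19, 1 for Krt7 and 0 for Krt8 and Krt18. The nearest was then Krt18 for Krt8 (0.92), Krt8 for Krt7 (0.92), Vcp for Krt18 (0.94) and Anxa2 for Krt19 (0.93). The cells and groups share 1 library, so these values carry no test.

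Only 3 other keratins had at least 50 UMIs in kept cells. Krt10, the type I keratin known from the upper layers of the epidermis, had 2324 UMIs (43.3 CPM), and differed little between airway-like and distal progenitor-like cells, at 51.9 and 43.1 CPM (ratio 1.20, interval 1.07 to 1.35). Unlike the abundant members, Krt10 was as high in the non-epithelial cells, at 44.1 CPM in mesenchymal-like cells, so its counts were not particular to the epithelium. Krt1, its epidermal partner, was at 5.80 and 2.14 CPM (2.71, interval 1.74 to 4.29). Krt23 went the other way, at 1.23 and 3.66 CPM (0.336, interval 0.172 to 0.614). Of the 53 keratin genes, 26 had no UMI.

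Desmosomes join the keratin filaments of neighbouring cells. Of 11 desmosome and plakin genes, 9 were measurable by the same count, and 2 of those were at least 2-fold higher in airway-like cells and 0 at least 2-fold lower, with a median log2 ratio of 0.68. Those 2 were Evpl (envoplakin, 2.59) and Pkp2 (plakophilin 2, 2.38). Dsp (desmoplakin), which ties keratin to the desmosome, was at 28.1 against 14.9 CPM (1.885, interval 1.58 to 2.25), and Jup (plakoglobin) at 29.6 against 24.3 CPM (1.22, interval 1.05 to 1.42). Of 5 hemidesmosome genes 3 were measurable, with Dst (dystonin) at 4.21 times and Itga6 (integrin alpha 6) at 0.738 times the distal level.

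Of 7 genes of other intermediate filaments, 6 were measurable, 1 at least 2-fold higher and 2 at least 2-fold lower in airway-like cells. Vim (vimentin), the filament protein of mesenchymal and many progenitor cells, was at 78.1 against 166 CPM (0.470, interval 0.434 to 0.507) and Synm (synemin) at 3.34 against 9.06 CPM (0.369). Lmna, the lamin of more mature nuclei, was at 16.4 against 5.74 CPM (2.87, interval 2.20 to 3.76). Mesenchymal markers summed to 2.46 CPM in airway-like and 2.07 CPM in distal progenitor-like cells, against 1984 CPM in mesenchymal-like cells.

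Of 12 transcription factors of epithelial fate, 9 were measurable, with 5 at least 2-fold higher and 0 at least 2-fold lower in airway-like cells and a median log2 ratio of 1.04. They were Grhl3 (8.90, interval 4.71 to 18.6), Grhl1 (4.86, interval 2.46 to 10.5), Klf5 (2.73, interval 2.42 to 3.08), Elf3 (2.71, interval 2.05 to 3.61) and Foxa2 (2.05, interval 1.87 to 2.26). Klf5 and Foxa2 were the most abundant of these, at 73.7 and 97.7 CPM in airway-like cells. The background shares of genes past a fold of 2 given above, 8.06% and 2.24%, hold for these lists as well.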

How the data were processed

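Single-cell 3′ RNA libraries were made from sorted lung epithelial cells at embryonic day 15. The deposited values are whole-number UMI counts per gene and barcode, filtered to cells by the authors' software (version 3.0.1 of it per the file headers). The submitters' processing notes name Cell Ranger, Seurat and mm10. Expression of the knockout library was not analysed here. Results for 1 small unnamed cluster are not reported here. The members and lists were chosen with earlier results of these data known.

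Cells with at least 1000 genes and at most 10% mitochondrial UMIs were kept. Counts scaled to 10000 UMIs were log transformed, and 2000 variable genes, without keratins and 97 cell-cycle genes, gave 20 principal components, 20 neighbours and Leiden clusters at resolution 0.5. A cluster took a cell type name from at least 3 markers that were at least 2-fold higher than elsewhere. Otherwise it was called distal progenitor-like from 3 distal markers at 1.5 times the airway level, Sox9 among them, a requirement set after the clusters were seen, and only if its 10 leading genes held no more markers of another class than distal ones. The Cym cluster met the first condition and not the second. The Smoc2-Rec8 cluster failed only the Sox9 requirement. The genes named are the 6 members, keratins of at least 50 UMIs, the gene lists and the 5 genes most correlated with each member above 20 CPM. Genes marking splits (Scgb3a2, Trp63, Ager, Sftpb, Mki67, Top2a) were chosen with values known. Intervals are exact Poisson for CPM, exact conditional binomial for ratios and Clopper-Pearson for shares, at 95%. The limit for 0 is 3 counts. UMIs correct for PCR copies, and no interval covers differences between embryos. The scripts were checked on simulated data. Python 3.11.15, scanpy 1.11.5, leidenalg 0.10.2, numpy 2.4.6, scipy 1.17.1, scikit-learn 1.9.0, pandas 2.3.3 and matplotlib 3.10.9 were used. Alternatives changed the cell filter, depth, clustering and thinning.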

Additional observations from a re-analysis of the deposited data

How the results depend on the processing

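Of 110 alternative values, 59 stayed within the range set for the value as reported and 51 moved outside it. A reversal was defined only for the airway-like over distal progenitor-like ratios, 12 alternatives for each of 5 keratins. All of these ratios stayed above 1, so 0 reversed. At clustering resolution 1.0 they were 1.75 for Krt7, 1.71 for Krt8, 4.28 for Krt15, 1.33 for Krt18 and 3.10 for Krt19. With cell-cycle genes kept they were 1.58, 1.55, 2.20, 1.20 and 2.48 in the same order. Without the Sox9 requirement, an alternative chosen after seeing the data, the distal class also held the Smoc2-Rec8 cluster. The ratios were then 2.18, 2.19, 3.79, 1.53 and 3.36. With the Cym cluster in the distal class, also chosen after seeing the data, they were 1.63, 1.61, 2.42, 1.28 and 2.63. With 3000 variable genes Krt8 was at 2.34, Krt15 at 4.43 and Krt18 at 1.54. Between the airway and distal ends of the marker order (20% of cells each) the ratio was 2.14 for Krt7, 1.825 for Krt8, 1.48 for Krt18 and 2.87 for Krt19. In cells of at most 14000 UMIs it was 3.01 for Krt7, 2.82 for Krt8 and 5.25 for Krt19. The causes were not tested. Levels over those shallower epithelial cells were 0.0 CPM for Krt5, 154.5 CPM for Krt7, 213 CPM for Krt8 and 353 CPM for Krt18, and the mean of each cell's own CPM gave 363 CPM for Krt18. Shares of cells with a UMI at 3000 UMIs were 35.0% for Krt7, 44.5% for Krt8, 1.91% for Krt15, 61.7% for Krt18 and 22.2% for Krt19. Without thinning they were 76.2%, 82.7%, 8.93%, 92.6% and 59.15%. The type I share in shallower cells was 53.7% in airway-like cells and 53.8% in the Cym cluster. No paired analysis was possible because the comparisons are within 1 library. With 1 library, the spread between embryos is unknown, and Krt15 and Krt5 are limited by their few UMIs.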
